A study of Mus musculus with 12 samples.

Results

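The H3K4me1 libraries are the 4 of the 12 deposited ChIP-seq libraries that carry this mark in their label, 2 from wild-type mice (WT) and 2 from mice carrying the Phf6 R274X transgene (Tg). They were chosen by mark and genotype alone, and their peak lists hold 456617 of the 750343 peaks of the series. The series profiled H3K4me1, H3K4me3 and H3K27ac in bone marrow cells of C57BL/6 mice that were sorted for the receptor cKit, which marks stem and progenitor cells, and asked how the chromatin state differs between the genotypes. R274X replaces an arginine codon of Phf6 by a stop codon, and Phf6 is a chromatin-associated PHD finger protein mutated in human leukaemias. The labels give the genotypes as wild type and Phf6R274X Tg. The promoter of the transgene, the presence of the endogenous Phf6 alleles, the age and sex of the mice and whether animals were pooled are not given in the sources used here. Nothing states that the replicates came from separate mice, so every p-value below measures the spread between these libraries, which may be technical.

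Monomethylation of lysine 4 of histone H3 marks enhancers, both primed ones and active ones, and active enhancers usually carry H3K27ac as well. At active promoters the nucleosomes next to the start carry H3K4me3, and H3K4me1 flanks them on both sides. The mark is written mainly by the enzymes Kmt2c and Kmt2d, and it appears around lineage genes in progenitors before many of those genes are fully expressed.

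The promoters of Aqp1, Hbb-bt and Gfi1b introduce the loci that the gene results below turn on. They are the 250 bases before the annotated start, read on the gene's strand from RefSeq, build GRCm38.p6, and are shown because the H3K4me1 lists differ over them or over the DNA around them. Capitals mark GATAA, the core bound by GATA factors, and CACCC, the box bound by Klf1 and other Krüppel-like factors, on either strand.
Aqp1, chr6:55336049-55336298 (plus strand): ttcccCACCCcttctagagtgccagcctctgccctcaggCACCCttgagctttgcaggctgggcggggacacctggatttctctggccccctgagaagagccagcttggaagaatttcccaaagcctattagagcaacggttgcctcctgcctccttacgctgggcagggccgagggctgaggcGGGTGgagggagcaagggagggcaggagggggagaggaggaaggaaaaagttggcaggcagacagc
Hbb-bt, chr7:103813924-103814173 (minus strand): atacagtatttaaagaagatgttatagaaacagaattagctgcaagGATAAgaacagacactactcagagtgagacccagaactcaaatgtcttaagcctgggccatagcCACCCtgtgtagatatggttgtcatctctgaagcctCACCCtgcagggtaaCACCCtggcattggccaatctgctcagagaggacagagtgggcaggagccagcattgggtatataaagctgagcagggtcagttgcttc
Gfi1b, chr2:28621983-28622232 (minus strand): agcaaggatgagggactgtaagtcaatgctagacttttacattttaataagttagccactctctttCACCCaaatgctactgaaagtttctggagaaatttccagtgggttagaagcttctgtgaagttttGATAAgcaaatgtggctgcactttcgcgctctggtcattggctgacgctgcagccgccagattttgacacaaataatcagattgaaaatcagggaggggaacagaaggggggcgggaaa
Aqp1 encodes the water channel of the red cell membrane. Both WT libraries had a peak over all 250 bases of its promoter, and neither Tg library had any peak there. Hbb-bt encodes an adult beta globin, and its promoter held 71 bases of a peak in WT replicate 2 and none in the other 3 libraries. At Gfi1b, a repressor needed for red cell and platelet formation, the promoter was covered over 250 bases in both WT libraries, over 113 in Tg replicate 1 and over 250 in Tg replicate 2. A GATAA was found in this window at 20.5% of the 21262 starts in the RefSeq table, a CACCC at 54.2%, and both at 9.38%. Of the 61 genes in the 3 red cell lists used below, 48 matched the table with 63 starts, of which 39.7% held GATAA, 65.1% CACCC and 31.7% both. These matches describe letters only.

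The 2 genotypes had peak lists of similar size, and the replicates differed far more than the genotypes did. WT replicates 1 and 2 had 100316 and 130348 peaks, and the Tg replicates had 104781 and 121172. They covered 66.3 and 119.7 Mb in WT and 70.7 and 117.0 Mb in Tg. Replicate 2 of each genotype therefore had the longer list, with a mean peak width of 918 bp in WT and 966 bp in Tg, against 661 and 675 bp in replicate 1. The log2 ratio of mean covered length, Tg over WT, was 0.01, with a 2-sided exact permutation p of 1 (n = 2 and 2). With 2 libraries against 2, this test cannot go below 0.333. Peak lists give no read depth, so the depth behind the longer lists is unknown.

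The 2 replicate 2 lists overlapped most, and genotype did not group the lists. The Jaccard index, the shared length divided by the joint length, was highest between WT replicate 2 and Tg replicate 2, at 0.631. It was 0.452 between the WT libraries and 0.491 between the Tg libraries, a mean of 0.472 within genotypes. Between WT replicate 1 and Tg replicate 1 it was 0.445, below both of these, and the pairs that share neither genotype nor replicate number had 0.433 (WT replicate 1 and Tg replicate 2) and 0.473 (WT replicate 2 and Tg replicate 1). The index was lower within genotypes than between them by 0.023 on average. Cut to the 100316 strongest peaks each, the lists still covered 66.3, 108.4, 69.0 and 109.4 Mb in the order WT replicate 1, WT replicate 2, Tg replicate 1 and Tg replicate 2. This order is used for every set of 4 values below.

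Among the measures tested over whole lists, the number, mean width, covered length and positions of peaks, 1 separated the genotypes. The share of peaks outside genes and more than 1 kb from any start was 30.02% and 31.8% in WT and 32.8% and 33.3% in Tg. Both Tg libraries lay above both WT libraries, with the smallest exact permutation p the design allows, 0.333. This p was not adjusted for the number of measures. The same order held in lists cut to equal number, to equal covered length and to a −log10 q of at least 5. The share of peaks within 1 kb of a start was 13.6%, 13.7%, 11.8% and 14.2%, and here the genotypes overlapped. Shares of covered length by chromosome, which were not tested, also separated the genotypes at some chromosomes. For example, chromosome 14 was higher and chromosome 6 lower in both Tg libraries.

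Merging the 4 lists gave 139885 regions, and most of those seen in a single genotype were small and lay far from starts. A peak of at least 1 bp was present in all 4 libraries at 46121 regions (33.0%). It was present in both Tg and neither WT library at 2751 regions (1.97%), and in both WT and neither Tg library at 4547 (3.25%). For scale, 13796 regions were found in both replicate 2 libraries and in no replicate 1 library. In lists cut to equal number, the Tg-only and WT-only regions numbered 3497 and 3945 of 120206, so the excess of WT-only regions became smaller once list length was equal. Leaving out 1 library in turn moved the Tg-only count to between 3440 and 20415 and the WT-only count to between 5589 and 26075. These counts rise by design, because the rule is looser once 1 library stands for its genotype, so they do not measure how stable the classes are. For example, 16864 regions of the full lists held a peak in Tg replicate 2 alone. Without Tg replicate 1 or without WT replicate 2 the Tg-only regions outnumbered the WT-only ones.

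**Figure D1:**
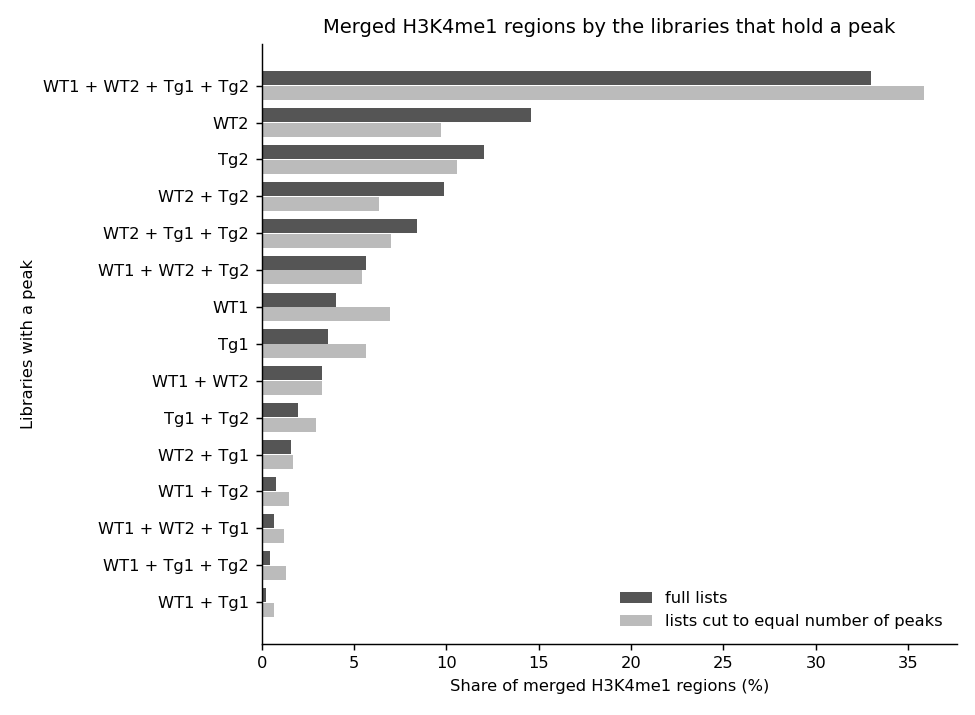
Share of merged H3K4me1 regions (x axis, %) by the libraries that hold a peak (y axis), in full lists (dark bars) and in lists cut to an equal number of peaks (light bars). Regions in all 4 libraries make up 33.0% of the full-list regions, while the Tg1 + Tg2 and WT1 + WT2 patterns make up 1.97% and 3.25%.

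The regions found in all libraries were longer than the one-genotype regions, and more of them lay at promoters. A region joins overlapping peaks, so one with peaks of all 4 libraries tends to be wider by construction. A wider region also meets a start or a peak of another mark more readily. The shares below were not adjusted for width. The median width was 1715 bp for regions in all libraries, 527 bp for Tg-only and 585 bp for WT-only regions. A start lay within 1 kb of 22.9% of the regions in all libraries, against 5.38% of the Tg-only and 7.13% of the WT-only regions. H3K4me3 peaks in all 4 libraries of that mark overlapped 47.1% of the constant regions, 6.76% of the Tg-only and 9.66% of the WT-only ones. The one-genotype classes differed from each other in position, with 39.8% of the Tg-only and 25.6% of the WT-only regions outside genes. The constant regions were called in smaller pieces in replicate 1, with 1.69 and 1.72 peaks per region in WT and Tg, against 1.40 and 1.37 in replicate 2. Peaks covered 56.6% and 59.8% of their length in replicate 1 and 86.6% and 86.4% in replicate 2.

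H3K27ac did not follow the genotype at the one-genotype regions. Among the H3K27ac libraries, peaks overlapped 7.12%, 4.33%, 3.85% and 5.38% of the Tg-only H3K4me1 regions. At the WT-only regions the shares were 7.28%, 5.85%, 4.33% and 6.62%. Both classes were thus mostly free of H3K27ac peaks in every library, whereas the constant regions held one at 62.5%, 52.7%, 47.2% and 57.1%. The constant regions were also wider, and these shares were not adjusted for width. The log2 ratio of the Tg-only to the WT-only share differed between Tg and WT H3K27ac libraries by -0.001, with an exact permutation p of 1 (n = 2 and 2).

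A stricter rule asked that a region be present in both libraries of a genotype in the equal-number lists and absent from both full lists of the other. It kept 1821 Tg-only and 2906 WT-only regions, which are 52.1% and 73.7% of the equal-number classes. The strongest Tg-only region, ranked by the lower of its 2 percentiles of −log10 p within its list, was chr17:57271174-57273667 (mm10), 5432 bp from Vav1, a signalling protein of blood cells. Its peak stood at percentile 99.2 in Tg replicate 1 and 99.99 in Tg replicate 2, and it held no H3K27ac peak in any library. Vav1 regulatory DNA is widely used to express transgenes in blood cells, and the sources used here do not name the promoter of this transgene. Reads from the inserted and the endogenous copy cannot be told apart in these lists.

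The next strongest Tg-only region had much lower percentiles. It was chr6:82834985-82835792, 60530 bp from the hexokinase gene Hk2, at percentiles 82.3 and 83.9. H3K27ac peaks covered 476 and 445 bp of it in the WT libraries and none in the Tg libraries, the reverse of its H3K4me1. Others lay within Smyd3, which encodes a lysine methyltransferase, near the centriole gene Cep120 and near Arl8b, whose product moves lysosomes. The strongest WT-only region, chr8:84936396-84937740, lay at the start of Mast1, a kinase gene, and overlapped an H3K4me3 peak in all 4 libraries of that mark. The others were 44 bp from Nckipsd and inside Tmem120b, Wipf2 and Map3k6.

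At Phf6 itself the lists differed mainly in Tg replicate 2. Over the gene, chrX:52912214-52956961, the libraries held 0, 1, 1 and 6 H3K4me1 peaks covering 0, 0.32, 0.39 and 2.59 kb. The best peak of Tg replicate 2 stood at percentile 99.9 of its list, and that of Tg replicate 1 at 68.4. A peak at the gene gives no measure of the mutant transcript, so it does not check the genotype labels. Within 10 kb of the gene's ends the covered length was 0, 318, 0 and 652 bp, a log2 difference of 0.12 ± 0.20 (SE; adjusted p = 0.91, limma), and the libraries overlapped.

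Around the starts of genes with H3K4me3 in all 4 libraries of that mark, H3K4me1 had its usual shape, a dip at the start between 2 shoulders. At these 12468 starts, a peak lay over the start itself in 10.8%, 20.2%, 8.96% and 18.4% of cases. The upstream shoulder, 600 bp before the start, was reached at 32.9%, 51.9%, 28.0% and 47.9% of starts. The downstream shoulder, at 1000 bp, was reached at 41.6%, 60.5%, 36.2% and 57.5%. In each replicate the Tg value was the lower at all 3 positions. The mean difference at the downstream shoulder was -4.18 percentage points (-5.36 in replicate 1 and -3.01 in replicate 2), and the exact permutation p was 0.667 because the replicates lay far apart. In lists cut to equal number it was -4.43 points. The 7806 starts with no H3K4me3 peak in any library showed no such shape, with 2.28% to 4.75% at the start. This profile was chosen after seeing the data.

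**Figure D2:**
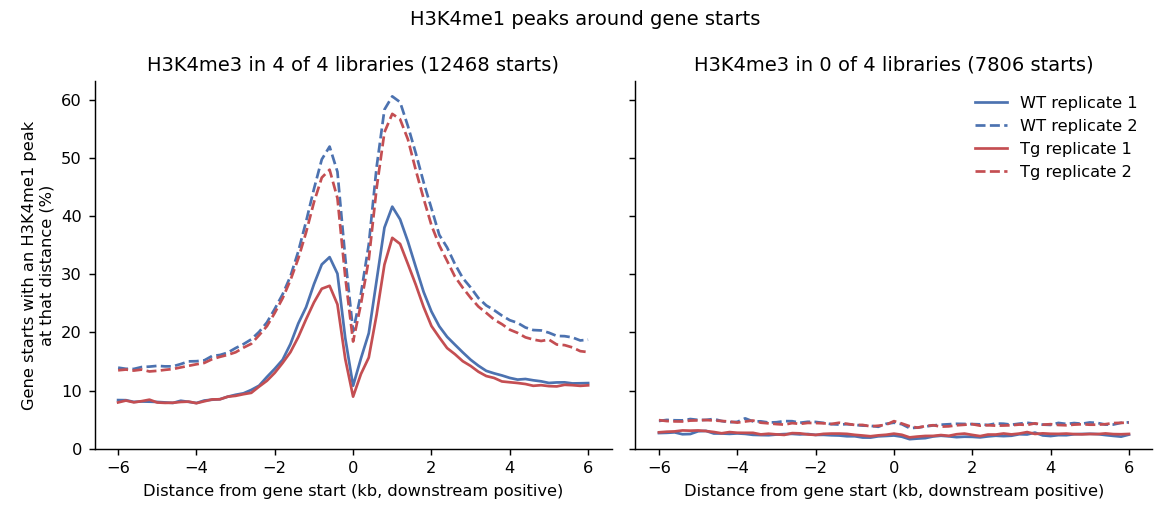
Share of gene starts with an H3K4me1 peak (y axis, %) at each distance from the start (x axis, kb), for starts with an H3K4me3 peak in 4 of 4 libraries of that mark (left) and in 0 of 4 (right); blue lines are WT, red lines Tg, solid lines replicate 1 and dashed lines replicate 2. At 1 kb downstream the Tg lines reach 36.2% and 57.5% and the WT lines 41.6% and 60.5%, while the right panel stays flat.

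For each protein-coding gene the length covered by H3K4me1 peaks within 10 kb of its start or end was then compared between genotypes. The log2 of this length plus 500 bp was quantile normalized, which makes the distributions of the 4 libraries equal, and 15829 genes with a peak in at least 2 libraries were tested with limma. No gene passed an adjusted p of 0.05, which is 0% of those tested, and the smallest adjusted p was 0.508. At an unadjusted p under 0.05 there were 1262 genes. Both Tg libraries lay above both WT libraries at 3074 genes (19.4%) and below them at 3110 (19.6%), which is the background for every such count below. A test of 54143 bins of 10 kb also called none (0%), with 4968 at an unadjusted p under 0.05, and 19.7% of bins lay above and 18.8% below without overlap. The fold changes below are therefore values that did not pass the test across all genes, given with their spread, and log2 differences are Tg minus WT on the normalized log2 scale. The covered lengths beside them are not normalized, so replicate 2 is usually the longer and raw values can overlap where normalized ones do not. A length of 0 also takes its own normalized value in each library, 0.199 kb in WT replicate 1 and 0.189 kb in Tg replicate 1. Counts without overlap can therefore include genes at 0 in both of these libraries.

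The red cell genes formed the group of lists with the lowest medians. Of 19 tested globin and haem genes, 18 were lower in Tg and 1 higher, with a median log2 difference of -0.52. In this list both Tg libraries lay below both WT libraries at 10 genes and above at 0. Neighbouring globin genes, such as Hba-a2, Hbq1a and Hbq1b among these 10, have overlapping windows and are not separate observations. Of 18 red cell membrane genes, 14 were lower and 4 higher, the median was -0.50, and 11 lay below and 2 above without overlap. The 18 erythroid regulators had 14 lower and 4 higher members and a median of -0.14, with 6 below and 1 above. Over all 15829 genes, 7834 were lower, 7995 higher, and the median was 0.00. Both replicate pairs gave the same sign, with medians of -0.55 and -0.46 for globin and haem genes, -0.63 and -0.37 for membrane genes and -0.29 and -0.04 for regulators. The lists were chosen with earlier results of these data known, so these counts are a description. Without WT replicate 1 the globin and haem median was -0.32 and the membrane median -0.27, and without Tg replicate 2 the former was -0.31.

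**Figure D3:**
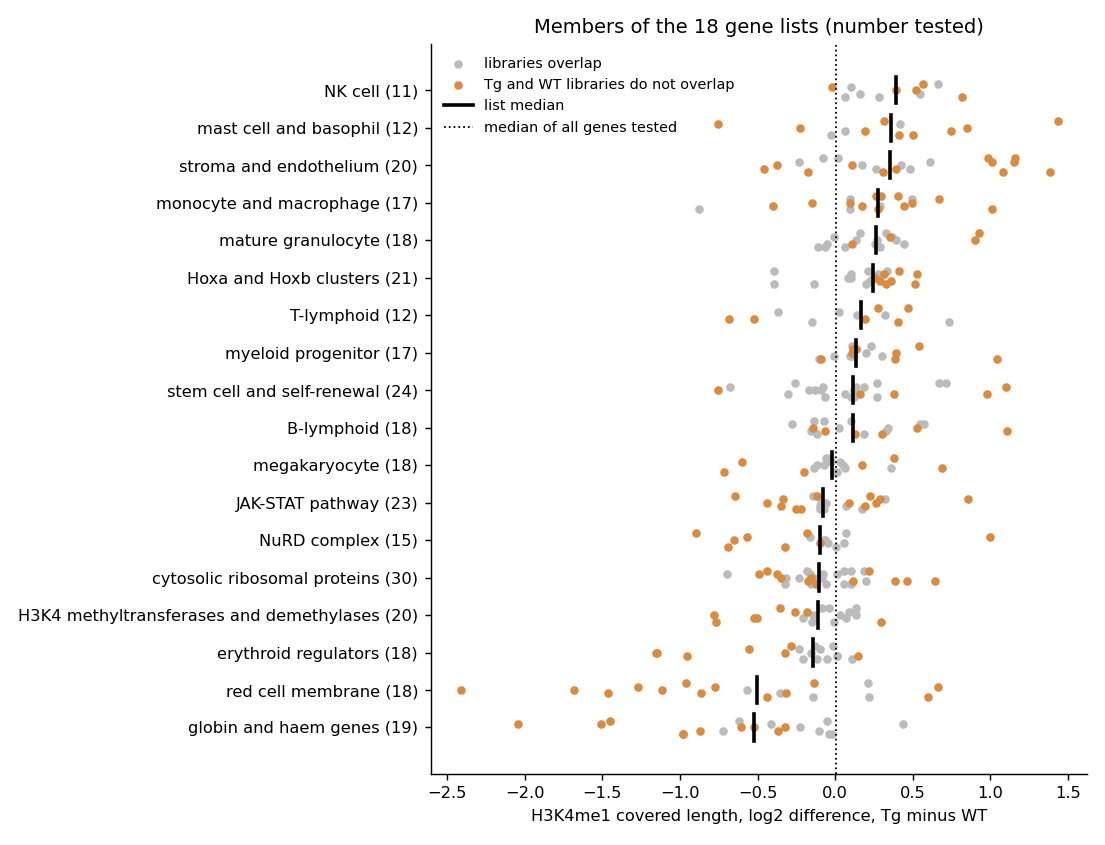
Log2 difference in H3K4me1 covered length, Tg minus WT (x axis), for each tested member of the 18 gene lists (y axis, number tested in brackets); black bars are list medians, the dotted line the median of all genes tested, and orange points are genes whose Tg and WT libraries do not overlap. The globin and haem list and the red cell membrane list have the lowest medians, -0.52 and -0.50.

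Among the globin and haem genes, the largest differences were at Hbb-bt, Fech and Hbb-y. Hbb-bt had 2714, 4903, 0 and 1375 bp, with a log2 difference of -2.05 ± 0.36 (SE; adjusted p = 0.508, limma). Within 2 kb of its start the lengths were 1242, 1476, 0 and 1375 bp, and there the genotypes overlapped. Hbb-y, an embryonic beta globin gene, had 4173, 3085, 492 and 1473 bp (log2 -1.45). Over the windows of 10 kb both Tg libraries were below both WT libraries at each of these genes. The adult beta globin gene Hbb-bs in the same cluster overlapped between genotypes, with 265, 273, 0 and 432 bp (log2 -0.23), and was named after its values were seen. The alpha globin gene Hba-a2 had 303, 1231, 0 and 0 bp, and the neighbouring Hbq1a shares the same peaks. Fech, which inserts iron into haem in the last step of its synthesis, had 2827, 5901, 637 and 1621 bp (log2 -1.51 ± 0.20). Cpox, an earlier enzyme of the same pathway, had 1426, 3918, 1177 and 1561 bp (log2 -0.61), and the difference came mostly from replicate 2. Hemgn, a nuclear protein of red cell precursors, had 9421, 11188, 5170 and 8771 bp (log2 -0.52). Hbb-bh1, Hbb-bh2 and Alas2 had peaks in fewer than 2 libraries and were not tested, and Ahsp did not match the gene table.

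The membrane genes with the largest differences spanned the water channel, the cytoskeleton and the blood group proteins. Aqp1, whose promoter is printed above, had 3186, 7607, 0 and 1502 bp (log2 -2.41 ± 0.41, SE; adjusted p = 0.508, limma). Tspan33, a tetraspanin needed for red cell formation, had 2273, 6204, 283 and 1658 bp (log2 -1.68). For Tmod1, which caps the actin filaments under the membrane, the lengths were 1797, 2100, 0 and 927 bp (log2 -1.46). All 3 genes had less coverage in either Tg library than in either WT library. Ankyrin Ank1, which ties the cytoskeleton to the membrane, had 1835, 3047, 577 and 1583 bp (log2 -0.87). Rhd had 1331, 5552, 547 and 1634 bp (log2 -1.11) and Cd59a, an inhibitor of complement, 5947, 6992, 2378 and 4616 bp (log2 -0.77). The list was not uniform. The glucose transporter Slc2a1 (3015, 6097, 6523 and 7371 bp; log2 0.66) and the beta spectrin Sptb (2043, 4158, 4162 and 4909 bp; log2 0.60) were above WT in both Tg libraries, and both were named after their values were seen. Slc4a1 and Kel were not tested for lack of peaks.

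Of the erythroid regulators, Gfi1b and Zfpm1 stood lowest. Gfi1b had 8614, 11641, 2602 and 6055 bp (log2 -1.16 ± 0.23, SE; adjusted p = 0.508, limma). Zfpm1, the cofactor FOG1 of GATA factors, had 15725, 22656, 4753 and 13154 bp (log2 -1.15), but its sign turned to 0.28 with a window of 2 kb. Gata1, the main GATA factor of red cells, carried short peaks of 874, 1318, 0 and 793 bp (log2 -0.95), and Sox6 had 2622, 3884, 1351 and 2554 bp (log2 -0.55). Klf1, by contrast, had 5006, 9923, 4022 and 8126 bp (log2 -0.23), and its normalized libraries overlapped. The other 2 of the 6 regulators below without overlap were Nfe2 (log2 -0.32) and Epor (log2 -0.29), also named after their values were seen.

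Where H3K27ac could be compared, the medians of these lists were not lower in Tg. Of 13076 genes tested in that mark in the same way, 36 (0.275%) passed in limma, and none of the red cell genes named here did. Both Tg libraries lay above both WT libraries at 25.4% of the 13076 genes and below at 19.6%. Of the 12892 genes tested in both marks, 7115 were higher in H3K27ac, with a median log2 difference of 0.03. For the 30 cytosolic ribosomal protein genes the H3K27ac median was 0.15. The H3K27ac medians were 0.16 for the 12 globin and haem genes tested in that mark, 0.22 for 9 membrane genes and 0.00 for 15 regulators. These members differ from those behind the H3K4me1 medians, since Hbb-bt, Hbb-y, Hba-a2, Aqp1 and Gfi1b were not tested in H3K27ac. Aqp1, Gfi1b and Hbb-bt held H3K27ac only in Tg replicate 2, with 1028, 320 and 1270 bp. A gene without an H3K27ac peak in any library cannot show a lower value. At Hbb-y, Hba-a2, Gata1, Sox6, Tspan33, Tmod1, Rhd and Ank1 there was no H3K27ac peak within 10 kb of the gene's ends in any of the 4 libraries. Fech held 1610, 1494, 1197 and 1652 bp of H3K27ac, Hemgn 4916, 4874, 3386 and 4665 bp. These 8 genes carried H3K4me1 peaks in both WT libraries. In a sorted population, fewer cells of a type and less of the mark per cell cannot be told apart.

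WT-only regions lay within 10 kb of the ends of many of these genes. They did so at 12 of the 22 globin and haem genes in the gene table, tested or not, and Tg-only regions at 1. For the 20 membrane genes the numbers were 11 and 3, and for the 18 regulators 4 and 1. In lists cut to equal number they were 7 and 1, 11 and 2, and 6 and 2. Among all genes tested 14.9% had a WT-only and 8.24% a Tg-only region this near, and 14.7% and 10.8% in the equal-number lists. Neighbouring globin genes can share a region, and the regions come from the same peaks as the covered lengths. The counts are therefore not separate observations.

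Upstream of the beta globin cluster the genotypes lay further apart than over its genes. The 30 kb upstream of Hbb-y, chr7:103853208-103883207 (mm10), contains the locus control region that drives the cluster. Peaks numbered 15, 9, 1 and 1 in the 4 libraries and covered 7.95, 5.21, 0.49 and 1.47 kb, and no H3K27ac peak lay there in any library. Over the beta globin genes themselves the genotypes overlapped, with 1.37, 1.67, 0 and 1.46 kb of H3K4me1, and H3K27ac covered 2.11 kb in Tg replicate 2 and none in the other 3 libraries. Nprl3, whose introns hold the enhancers of the alpha globin genes, had 12.02, 16.0, 5.14 and 8.62 kb over the gene with 10 kb on each side. At that locus H3K27ac covered 1.52, 1.08, 1.70 and 1.97 kb, with no lower value in Tg. Over the alpha globin genes the H3K4me1 lengths were 0.57, 1.23, 0 and 0 kb. Klf1 and Epor, the erythropoietin receptor gene, differed less, and the latter had 2.93, 3.91, 1.68 and 3.59 kb. These loci were chosen after their values were seen.

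**Figure D4:**
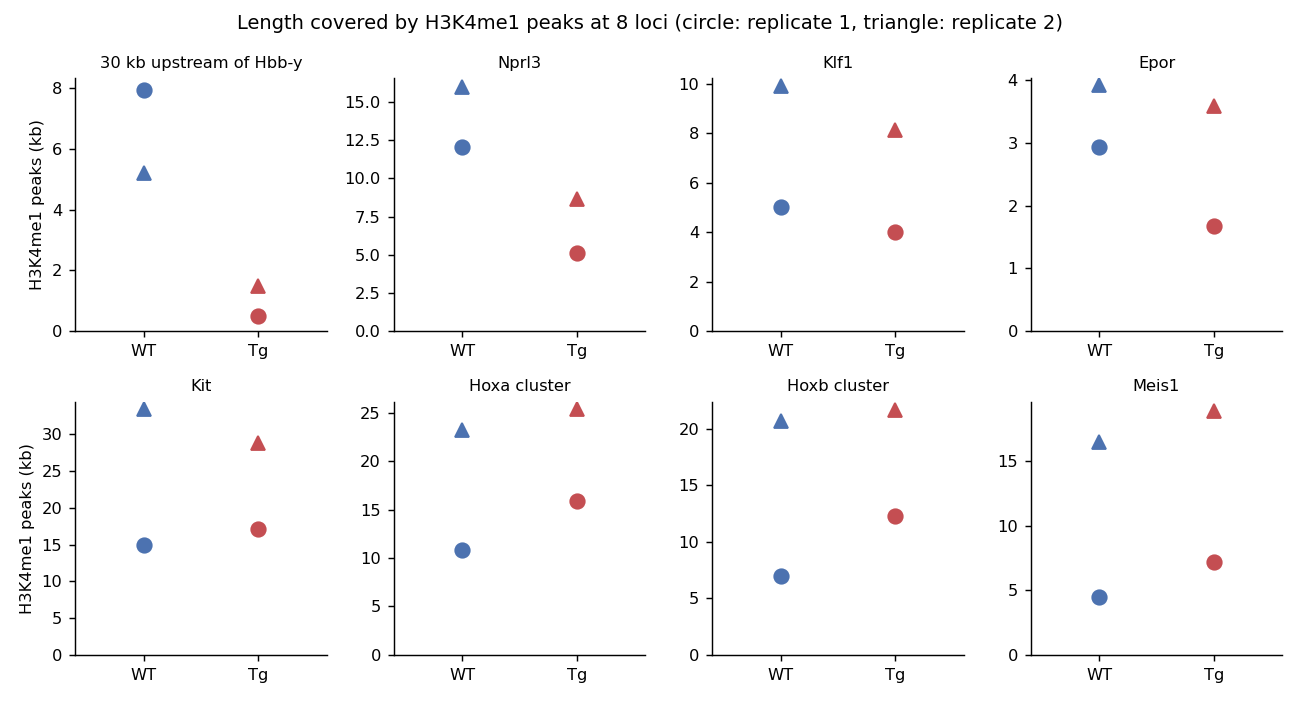
Length covered by H3K4me1 peaks (y axis, kb, from 0 in each panel) at 8 loci in the WT (blue) and Tg (red) libraries; circles are replicate 1 and triangles replicate 2. Upstream of Hbb-y and at Nprl3 both Tg points lie below both WT points, whereas at Kit, Klf1 and the Hoxa and Hoxb clusters the difference between replicates is larger than that between genotypes.

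The Hoxa and Hoxb clusters showed the opposite sign. These homeobox genes are active in stem cells and early progenitors and are switched off as blood cells mature. Of their 21 members, 18 were higher and 3 lower in Tg, with a median log2 difference of 0.25, and both Tg libraries lay above both WT libraries at 8 and below at 0. Hoxa9, which sustains self-renewal and is overexpressed in many leukaemias, had 5602, 14553, 11549 and 15479 bp (log2 0.51 ± 0.29, SE; adjusted p = 0.706, limma). Hoxa7 had 5863, 12415, 9107 and 14425 bp (log2 0.41), and Hoxa10 had 5542, 12335, 9615 and 12178 bp (log2 0.36). At all 3 genes WT replicate 1 was by far the shortest, and neighbouring genes share peaks, so they are not separate observations. Over the whole Hoxa cluster the coverage was 10.9, 23.3, 15.9 and 25.4 kb, and over Hoxb it was 6.98, 20.7, 12.2 and 21.6 kb. H3K27ac covered 0.78, 1.55, 6.33 and 3.92 kb of the Hoxa cluster, where both Tg libraries were above both WT libraries, and its list median was 0.88. No gene of these clusters passed the test in either mark.

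Stem and progenitor genes gave mixed values. The labelled cell type is defined by Kit, which held 6004, 9917, 7352 and 9389 bp of H3K4me1 near its ends (log2 0.12 ± 0.21, SE; adjusted p = 0.915, limma), and 15.0, 33.4, 17.1 and 28.8 kb over the gene with its flanks. Coverage of this defining gene was present in all 4 libraries and overlapped between genotypes. Of 24 stem cell genes 15 were higher and 9 lower, with a median of 0.12. Slamf1, a surface marker of stem cells, had 251, 1192, 1372 and 2336 bp (log2 1.10 ± 0.21). Cd34, a surface protein of progenitors, had 1895, 8699, 7598 and 9989 bp (log2 0.98), and its value rested mainly on the low WT replicate 1. Gata2, a factor of stem cells and mast cells that Gata1 replaces in red cells, went the other way with 6196, 14419, 4099 and 6876 bp (log2 -0.76). The megakaryocyte list had a median of -0.02, with 3 members above and 3 below. Its platelet receptor genes Gp5 (1544, 3386, 840 and 1499 bp; log2 -0.72) and Itga2b (2900, 5997, 1133 and 4662 bp; log2 -0.60) were lower in both normalized Tg libraries. The platelet receptor gene Gp6 (0, 703, 305 and 1203 bp; log2 0.69) and the adhesion gene Selp (5136, 11323, 8728 and 11568 bp; log2 0.38) were higher in both.

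The myeloid lists had positive medians. They were 0.13 for 17 myeloid progenitor genes, 0.26 for 18 mature granulocyte genes and 0.27 for 17 monocyte and macrophage genes, each with 14 members higher. Without overlap, 7 and 1 members lay above and below in the first list, 4 and 0 in the second and 10 and 2 in the third. Over all genes tested the shares were 19.4% above and 19.6% below. Ctsg, the granule protease cathepsin G, had 1160, 6595, 5303 and 7906 bp (log2 1.05). Ngp, a granule protein, had 1789, 5976, 5843 and 7349 bp (log2 0.90), and Ly6g, the surface marker of neutrophils, 1013, 5601, 3636 and 7145 bp (log2 0.93). In these 3 genes WT replicate 1 was well below the other libraries. The medians were larger in replicate 1 than in replicate 2, at 0.33 and 0.09, 0.42 and 0.09, and 0.41 and 0.12. Fcgr1, an antibody receptor of monocytes, was more even, with 3180, 5057, 5969 and 6941 bp (log2 0.67). The 2 monocyte and macrophage members below were Ccr2 (6333, 11132, 3634 and 9686 bp; log2 -0.40) and Lyz2 (7236, 12336, 6289 and 10872 bp; log2 -0.15). Both were named after their values were seen. H3K27ac had a median of 0.24 at the myeloid progenitor genes, with 10 of 16 higher. Among all genes tested in both marks, 7115 of 12892 were higher in H3K27ac. The granule genes Mpo, Elane and Prtn3, named after their values were seen, rose in that mark (adjusted p = 0.049, 0.044 and 0.044, limma). Their H3K4me1 differed by log2 0.30, -0.01 and -0.10. Elane and Prtn3 are neighbours whose windows overlap, so they are not separate observations. The monocyte and macrophage median was -0.04. H3K27ac gave the opposite sign at the mature granulocyte genes, where 17 of 18 were lower in Tg and the median was -0.58. Ngp held 13789, 12098, 9257 and 9662 bp of H3K27ac and Ly6g 3435, 2465, 1214 and 458 bp. Neither passed in that mark (adjusted p = 0.75 and 0.30, limma). Of the same list, Mmp8 (log2 -1.84) and Cd177 (log2 -1.67) were lower in H3K27ac and passed (adjusted p = 0.049 and 0.044, limma). Both were named after their values were seen, and their H3K4me1 differed by log2 -0.11 and 0.45.

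**Figure D5:**
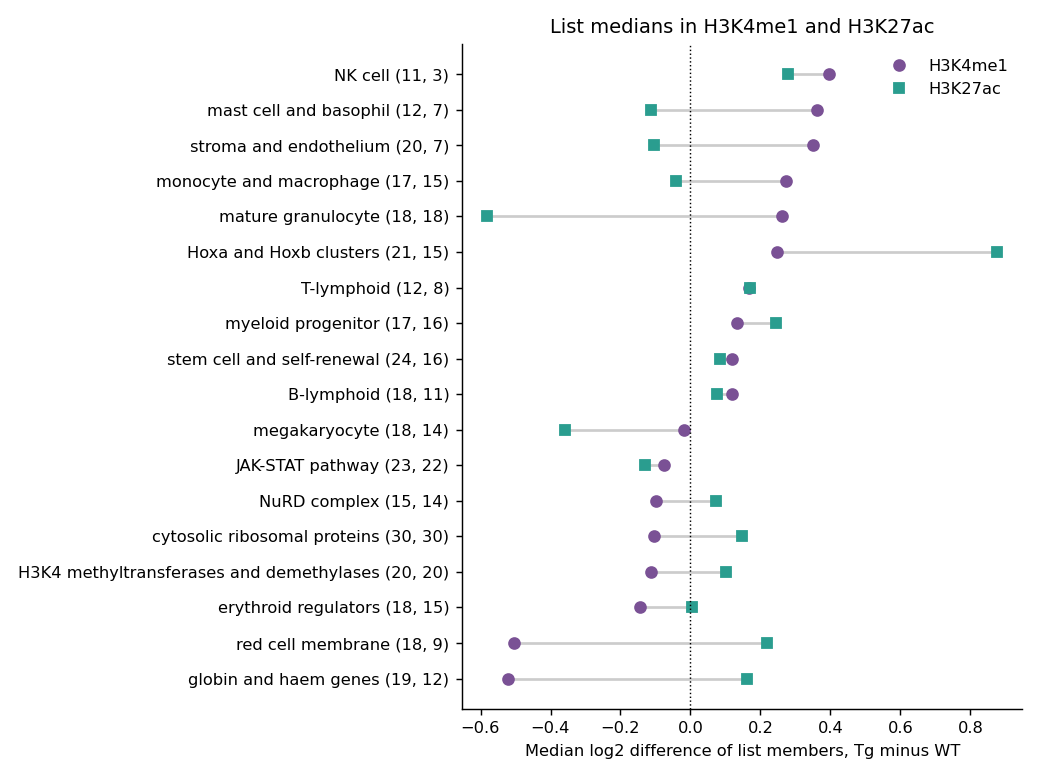
Median log2 difference of list members, Tg minus WT (x axis), in H3K4me1 (circles) and H3K27ac (squares) for the 18 gene lists (y axis, members tested in each mark in brackets). The marks are on the same side for the Hoxa and Hoxb clusters (0.25 and 0.88). They are on opposite sides for the mature granulocyte list (0.26 and -0.58) and the globin and haem list (-0.52 and 0.16). Opposite sides are not particular to these lists. Other examples are the red cell membrane (-0.50 and 0.22), stroma and endothelium (0.35 and -0.10) and cytosolic ribosomal protein lists (-0.10 and 0.15). In the globin and haem list the marks cover different members, 19 tested in H3K4me1 and 12 in H3K27ac.

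Markers of other cells that a marrow sort could hold also had positive medians, and their part in the results above was not tested. In the stroma and endothelium list 15 of 20 tested members were higher and the median was 0.35, with 9 above and 3 below without overlap. Its summed coverage was 37.4 and 76.4 kb in WT and 55.5 and 80.1 kb in Tg. Lepr, a marker of marrow stroma, had 0, 878, 1147 and 2275 bp (log2 1.39 ± 0.25, SE; adjusted p = 0.508, limma), and Sparc, a matrix protein, had 0, 0, 519 and 1173 bp. Col4a1, a collagen of vessel walls, had 1053, 3974, 4637 and 5198 bp (log2 1.08). At each of these 3 genes both Tg libraries were the higher. The 3 members below were Cxcl12, a chemokine that holds stem cells in the marrow (0, 936, 0 and 280 bp), Prrx1 and Bglap. Prrx1 had 0, 741, 0 and 265 bp and Bglap 0, 1274, 0 and 359 bp. All were named after their values were seen and had no peak in either replicate 1 library. Their order in replicate 1 came from the normalization alone, which gave a length of 0 as 0.199 kb in WT and 0.189 kb in Tg. The mast cell and basophil list had 9 of 12 members higher, a median of 0.36 and summed coverage of 29.8 and 65.8 kb in WT and 36.2 and 62.4 kb in Tg. Mcpt8, a protease of basophils, had 0, 2666, 2077 and 3772 bp (log2 1.43). Its window overlaps that of Ctsg, so they are not separate observations. The mast cell protease Cpa3 had 0, 757, 306 and 1624 bp (log2 0.85). Without overlap, 7 members of this list were above and 2 below. Gata2, given above with the stem cell genes, is also in this list and was below (6196, 14419, 4099 and 6876 bp; log2 -0.76). NK cell genes had 10 of 11 members higher and a median of 0.40, but the median was 0.44 in replicate 1 and -0.01 in replicate 2. Without overlap, 4 of them were above and 1 below. Neighbours such as Klre1, Klrd1 and Klrk1 have overlapping windows and are not separate observations. The summed coverage of the NK cell genes was 17.1 and 39.4 kb in WT and 24.3 and 41.4 kb in Tg. The B-lymphoid and T-lymphoid medians were 0.12 and 0.17, with summed coverage of 37.0 and 76.0 kb in WT and 46.1 and 72.9 kb in Tg for B cells, and of 28.8 and 55.5 kb and 30.6 and 53.4 kb for T cells.

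Genes of chromatin enzymes had slightly negative medians. Phf6 binds the NuRD remodelling complex, and of its 15 listed subunits 11 were lower and 4 higher, with a median of -0.10. Both Tg libraries lay below both WT libraries at 7 of them and above at 1. Rbbp7, a histone-binding subunit, had 413, 1171, 0 and 271 bp (log2 -0.90 ± 0.20, SE; adjusted p = 0.508, limma). Mta1, a scaffold subunit, had 6733, 10026, 3212 and 6736 bp (log2 -0.69), and the deacetylase Hdac2 had 2111, 2549, 884 and 1583 bp (log2 -0.65). Chd5, a remodelling subunit mainly of neurons and testis, was the only member above without overlap, with 392, 1674, 2335 and 2145 bp. Of 20 H3K4 methyltransferase and demethylase genes 13 were lower, with a median of -0.11, 7 below and 1 above. Kmt2c and Kmt2d, the main writers of H3K4me1, had 2832, 5158, 805 and 3804 bp (log2 -0.77) and 8950, 11866, 4777 and 9480 bp (log2 -0.52). Kdm6a, the H3K27 demethylase that acts with them, had 1779, 2906, 706 and 1475 bp (log2 -0.78). The cytosolic ribosomal protein genes, which nearly all cells express, also had a negative median, -0.10 over 30 genes. The JAK-STAT list was near the centre at -0.08 over 23 genes. In that list Stat5a had 9176, 15584, 7252 and 7741 bp (log2 -0.65) and the receptor gene Csf2rb2 2826, 8617, 6586 and 12916 bp (log2 0.86).

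Over all genes, list members included, the largest differences without overlap in both the full and the equal-number lists were on the lower side. That rule kept 2397 lower genes and 2388 higher ones, 15.1% of those tested in each direction. AA986860, on chr1:130731942-130744622, had 3360, 4777, 0 and 581 bp, a log2 difference of -2.61 ± 0.22 (SE; unadjusted p = 4.75e-05 and adjusted p = 0.508, limma). Mindy4, a deubiquitinase gene next to Aqp1 on chromosome 6, had 4048, 6049, 334 and 565 bp (log2 -2.51). Its window overlaps that of Aqp1, so they are not separate observations. Aqp1 itself (log2 -2.41) was left out here by the rule of 1 gene per 50 kb. Paqr9, a membrane receptor gene, had 3810, 4238, 0 and 1064 bp (log2 -2.29). At AA986860, Mindy4 and Paqr9 WT coverage was at least 3 kb in each library and Tg coverage close to 1 kb or less. Dnajc16 (log2 -1.85), Rec114 (-1.90), Galnt10 (-1.82), Ccdc74a (-1.79), Abhd16a (-1.71) and Pln (-1.70) completed the lower side together with Hbb-bt.

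On the higher side the values rested more on a single library. WT replicate 1 was at 0 at 4930444G20Rik (0, 4647, 4026 and 7941 bp; log2 1.96), Nxpe4 (0, 2168, 1656 and 5147 bp; log2 1.66), Cacng8 (log2 1.62), Nnmt (1.53), Cfp (1.46), Mcpt8 and Serpina3g (1.41). Prom2, a gene related to the stem cell marker prominin, was the most even of the set with 1448, 3676, 8098 and 7695 bp (log2 1.58 ± 0.29, SE; adjusted p = 0.508, limma). Slc28a2b, of a nucleoside transporter family, had 854, 5000, 5403 and 11330 bp (log2 1.65), and Glra1, a glycine receptor, 272, 2534, 2981 and 4338 bp (log2 1.46). Apart from Prom2, Slc28a2b and Glra1, the 10 genes of this side had no H3K4me1 peak in WT replicate 1.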

How the data were processed

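Peak lists of 12 ChIP-seq libraries (single-end reads of 75 bp) were used, 1 list per library. Per the submitters' processing notes, the authors worked on mm10 with MACS2, Bowtie2, SAMtools, deepTools, Trim Galore and FastQC; versions, settings and control libraries are not given in the sources used here. Each deposited list gives per peak a fold enrichment, a −log10 p, a −log10 q and a score by the authors' peak caller; −log10 p ranked peaks within a list, −log10 q set the stricter threshold, and presence and width were taken from positions. Read depth is unknown, and longer lists may reflect depth.

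Peaks of the 4 lists were merged where they overlapped. Covered lengths within 10 kb of the start or end of 21883 protein-coding genes (RefSeq, GRCm38.p6), plus 500 bp, were log2 transformed, quantile normalized and tested with limma 3.58.1 (R 4.3.3), with Benjamini-Hochberg adjustment, after requiring a peak in at least 2 libraries. Library-wide values were tested by exact permutation. Scripts were tested on simulated data and against bedtools 2.31.1. The members and the 18 gene lists were chosen with earlier results of these data known. Named genes are Phf6, Kit, the 10 largest differences per direction among genes without overlap in full and equal-number lists (mean of at least 2000 bp, 1 per 50 kb), and up to 4 per list without overlap (8 in the 3 lists with the most distant medians). H3K4me3 was used only as present in all or none of its libraries, since peak names inside those lists carry the genotype opposite to the label. H3K4me1 replicate numbers are shared between genotypes, and whether they mark a shared batch is not given in the sources used here.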

Additional observations from a re-analysis of the deposited data

How the results depend on the processing

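No bin passed under any alternative, and no gene did except 1 (Myrfl, higher) when genes without peaks were also tested. Without normalization both Tg libraries lay above both WT libraries at 411 genes and below at 1042. The replicate block gave 0 genes (1554 at an unadjusted p under 0.05). Over genes, same-numbered libraries deviated together with a correlation of 0.21, and the replicate 1 and 2 differences correlated at 0.31, but the labels do not say that the numbers pair samples.

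Regions in all libraries numbered 22215 with lists cut to equal covered length, 24190 at a −log10 q of at least 5, and 18230 and 17550 when a peak had to cover 50% or more of the region (full and equal-number lists). Tg-only and WT-only regions numbered 1327 and 1648, and 1771 and 2030, under the first 2 of these, and 1587 and 2331 with peaks up to 1 kb apart merged. The globin and haem median was -1.01 and -0.85 under the same 2 cuts, -0.31 with 2000 bp added, -0.39 with a peak in at least 1 library, -0.18 and -0.73 with windows of 2 and 50 kb and -0.63 over whole genes. The red cell membrane median was -0.18 with equal covered length, -0.70 with 100 bp added, -0.22 at 2 kb and -0.27 at 50 kb. The sign reversed for Phf6 at 50 kb (-0.059), Kit at the stricter q (-0.12) and over the whole gene (-0.023), Zfpm1 at 2 kb (0.28) and Hoxa10 with equal covered length (-0.081). The causes were not tested.

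Leaving out 1 library in turn gave 3440 to 20415 Tg-only, 5589 to 26075 WT-only and 49081 to 58458 constant regions. These region counts rise by design, because presence or absence is then asked of fewer libraries. The log2 ratio of covered length ranged from -0.40 to 0.50 and the Jaccard difference from -0.079 to 0.053. For Kit the log2 difference ranged from -0.014 to 0.26. The medians ranged from -0.76 to -0.31 for globin and haem, from -0.59 to -0.27 for membrane genes and from -0.28 to -0.08 for regulators. Of the 18 list medians, 12 kept their sign under all 18 alternatives.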
